A study of Homo sapiens with 8 samples.

Results

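Accessible regions at the ends of protein-coding genes that were called in every library were examined in mitotic human cells with active or inhibited Plk1. Peaks of 8 libraries on chromosomes 1 to 22 were merged into 583075 regions wherever they overlapped by at least 1 bp. Of these, 36170 held a peak in all 8 libraries and are called constitutive here. The 10492 constitutive regions that overlapped the 1 kb either side of an annotated end of a protein-coding gene (29.0% of the constitutive regions) are the gene-end regions described below. The other 25678 constitutive regions lay in gene bodies (16157) or overlapped no gene (9521). Membership used the presence of a peak in all libraries, irrespective of treatment, so regions lost from any library are not among these.

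The assay was ATAC-seq, which uses the Tn5 transposase to tag open DNA. The cells were hTERT RPE-1, a telomerase-immortalised human retinal pigment epithelial line, with the genotype Plk1-/- EGFP-Plk1as. All 8 libraries therefore lacked endogenous Plk1 and depended on a tagged analog-sensitive kinase, which the inhibitor 3MB-PP1 blocks. Every culture was held in prometaphase with 5 µM STLC for 16 h and was above 95% mitotic. In the continued presence of STLC, 4 cultures received 0.5% DMSO and 4 received 10 µM 3MB-PP1 for 2 h. No library of asynchronous cells and no cell line with an inhibitor-insensitive kinase was analysed here, so effects of 3MB-PP1 on other targets cannot be told apart from those of Plk1. The question was whether the extent, rank or continuity of accessible gene ends differed when Plk1 was inhibited.

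Plk1 is a kinase that drives mitotic entry, spindle assembly and cytokinesis. Transcription falls and chromosomes condense during mitosis, yet promoters as a class are known to keep accessibility better than distal elements. Most active human promoters lie in CpG islands, short stretches rich in CG dinucleotides that bind factors such as SP1 (the GC box), NF-Y (the CCAAT box), ETS proteins, NRF1 and YY1.

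The regions lay mainly at gene starts. Of 19126 protein-coding genes on these chromosomes, 11837 (61.9%) had a gene-end region. The strand of the gene was taken from the promoter table, which held 15101 of the genes. By that strand, 7500 regions lay at a start only, 615 at a 3′ end only and 652 at both, and 1725 lay at genes whose strand was not known. Gene ends made up 2.42% of the regions called in a single list and 29.0% of those called in all 8. The 1301 gene-end regions called in 7 lists had a median covered length of 613 bp and a median best −log10 q of 1.79, against 1341 bp and 8.91 for those called in 8. The 347 members lying over 500 and up to 1000 bp from a gene end had a median covered length of 873.5 bp, and 351 constitutive regions over 1000 and up to 1500 bp away had 861 bp.

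The promoters under these regions are described here by their sequence, without a test. RefSeq promoter sequences (GRCh38.p14, 300 bases from 250 before to 50 after the gene start) were matched for 15099 genes. Promoters with a constitutive region at the start (9265) had a median GC content of 65.3% and a median observed-over-expected CpG ratio of 0.846. The ratio was 0.438 in the 4066 promoters called in 1 to 7 lists and 0.293 in the 1768 called in none. Searching both strands, the GC box (GGGCGG) was present in 70.8% of constitutive promoters, against 58.9% of all promoters and 29.2% of those never called. The ETS core (CCGGAA) was in 30.5%, 23.1% and 9.05%, the YY1 core (AAGATGGCG) in 4.24%, 2.79% and 0.170%, and the NRF1 core (GCATGCGC) in 6.01%, 4.19% and 1.19% of the same groups. The TATA box (TATAAA) went the other way, at 5.48%, 9.71% and 20.9%. The CCAAT box (CCAAT) was in 37.2%, 36.0% and 35.5%. The AP-1 site (TGAGTCA) was in 2.88%, 3.66% and 5.20%, and the TEAD core (GGAATG) in 10.3%, 11.7% and 14.1%. The E-box (CACGTG) was in 10.5% and 8.77%, the CRE (TGACGTCA) in 3.49% and 2.65%, and the CTCGCGAG palindrome in 2.20% and 1.54% of constitutive and all promoters. A match is a run of letters in this window and not evidence of binding.

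The following promoters are printed as examples of the kinds of region found, each as the 250 bases before the RefSeq gene start, 5′ to 3′ on the gene's strand, with matches to the 11 motifs in capitals. KLHDC8B (chr3:49171348-49171597, plus strand) and COMMD2 (chr3:149752490-149752739, minus strand) were among the regions whose covered length passed the test as lower with 3MB-PP1. The first holds 2 GC boxes and the second 2 ETS cores.
KLHDC8B: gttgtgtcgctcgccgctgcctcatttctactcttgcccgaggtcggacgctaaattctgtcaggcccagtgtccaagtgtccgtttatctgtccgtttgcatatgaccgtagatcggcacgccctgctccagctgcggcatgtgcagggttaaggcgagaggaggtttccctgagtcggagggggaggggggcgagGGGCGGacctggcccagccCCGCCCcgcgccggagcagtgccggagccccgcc
COMMD2: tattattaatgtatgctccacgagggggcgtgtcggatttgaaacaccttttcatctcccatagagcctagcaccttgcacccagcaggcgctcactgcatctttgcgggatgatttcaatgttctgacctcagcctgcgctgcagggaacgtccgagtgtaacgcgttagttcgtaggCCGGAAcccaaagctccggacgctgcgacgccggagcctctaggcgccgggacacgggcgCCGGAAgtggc
FOXO1 (chr13:40666642-40666891, minus strand) came first among regions with more covered length relative to the shift of all regions, without passing the test, and holds 4 GC boxes and a CCAAT box.
FOXO1: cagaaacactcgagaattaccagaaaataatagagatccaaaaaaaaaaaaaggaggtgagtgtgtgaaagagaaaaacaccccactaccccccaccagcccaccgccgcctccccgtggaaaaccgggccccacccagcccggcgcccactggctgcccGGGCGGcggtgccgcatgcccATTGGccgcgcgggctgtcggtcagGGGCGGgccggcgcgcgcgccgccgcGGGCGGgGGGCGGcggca
SPRYD4 (chr12:56468328-56468577, plus strand) and TTL (chr2:112481906-112482155, plus strand) passed the test for height rank in opposite directions. Each holds 4 GC boxes, and SPRYD4 an E-box as well.
SPRYD4: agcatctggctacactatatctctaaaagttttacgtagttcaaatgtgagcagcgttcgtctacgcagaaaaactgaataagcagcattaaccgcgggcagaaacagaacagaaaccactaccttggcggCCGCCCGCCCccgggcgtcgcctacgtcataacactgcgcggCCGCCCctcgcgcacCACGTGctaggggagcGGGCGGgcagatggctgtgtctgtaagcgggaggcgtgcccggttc
TTL: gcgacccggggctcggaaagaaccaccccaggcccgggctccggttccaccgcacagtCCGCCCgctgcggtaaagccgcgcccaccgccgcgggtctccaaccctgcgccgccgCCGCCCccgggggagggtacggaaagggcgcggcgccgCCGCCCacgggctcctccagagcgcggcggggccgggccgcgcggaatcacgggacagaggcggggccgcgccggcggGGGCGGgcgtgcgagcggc
TRIM41 (chr5:181223031-181223280, plus strand) lies in the gene-end region with the highest mean percentile and holds a GC box and an ETS core.
TRIM41: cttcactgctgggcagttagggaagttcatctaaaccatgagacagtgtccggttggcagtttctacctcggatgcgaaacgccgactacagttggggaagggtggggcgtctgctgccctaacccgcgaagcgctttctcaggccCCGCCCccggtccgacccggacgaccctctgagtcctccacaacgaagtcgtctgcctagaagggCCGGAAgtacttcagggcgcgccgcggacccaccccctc
MAP2K3 (chr17:21284461-21284710, plus strand) was among the regions with the largest gain in number of peaks. Its promoter holds 3 GC boxes, a CCAAT box and an AP-1 site.
MAP2K3: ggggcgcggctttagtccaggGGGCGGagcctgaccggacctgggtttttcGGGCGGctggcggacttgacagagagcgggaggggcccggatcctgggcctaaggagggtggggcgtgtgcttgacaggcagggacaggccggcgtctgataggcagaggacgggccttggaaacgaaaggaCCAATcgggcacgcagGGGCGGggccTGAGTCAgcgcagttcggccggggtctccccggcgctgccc
OR1L6 (chr9:122742053-122742302, plus strand), an olfactory receptor gene, was among those with the largest loss in number of peaks and holds a GC box and a CCAAT box.
OR1L6: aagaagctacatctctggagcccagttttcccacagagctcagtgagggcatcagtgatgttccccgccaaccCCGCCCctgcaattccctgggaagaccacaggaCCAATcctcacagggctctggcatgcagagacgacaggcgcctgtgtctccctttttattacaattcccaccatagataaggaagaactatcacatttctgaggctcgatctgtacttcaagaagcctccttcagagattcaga

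The deposited data are 1 list of peaks per library, with 149172 to 250548 peaks on the chromosomes used. No read totals accompany the peaks, so depth is unknown. No pair of lists shared more than 0.0336% of identical peak positions. In each list no peak was narrower than a smallest width (114 to 135 bp with DMSO, 90 to 109 bp with 3MB-PP1), and no pair of neighbouring peaks lay closer than a smallest gap (458 to 542 bp and 363 to 440 bp). The groups did not overlap in either, and their part in the widths below was tested only by the joined and equal-width alternatives. Of the marker genes of the cell line, VIM, FN1, TAGLN, KRT8, KRT18, MITF and OTX2 had a gene-end region, and KRT7, KRT19, RPE65, BEST1, RLBP1 and TYR did not. A peak at a gene end is not expression. Constitutive ends were also found for the blood gene CD3E, the muscle gene MYOG and the neuronal gene SNAP25, and for none of ALB, APOA1, FGA, PTPRC, HBB, SPI1, CD79A, CKM and ACTA1.

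The covered length of gene-end regions was lower in every 3MB-PP1 library than in every DMSO library, but the difference missed the adjusted threshold of 0.05, as did all 6 library measures described below. The median covered length per region was 1482, 1458, 1518 and 1337 bp in DMSO replicates 1 to 4 and 1277, 1222, 1286 and 1176 bp in 3MB-PP1 replicates 1 to 4. The groups did not overlap. The means were 1449 ± 78.5 bp and 1240 ± 51.3 bp (SD, n = 4), a difference of −208.5 bp. The exact two-sided permutation p was 0.0286, the smallest that 70 assignments of 8 libraries allow, and the Benjamini-Hochberg adjusted p over 6 library measures was 0.0571. The p-values set the group difference against other assignments of these 8 libraries, which were taken as the replicates. In bulk cells, a lower signal in every cell and a loss in some cells cannot be told apart. At least 4 of the 6 measures must reach the smallest p for any to pass 0.05, and 3 did. The difference was −218.5 bp within the odd-numbered and −198.5 bp within the even-numbered replicates. With 3MB-PP1, 9119 of the 10492 regions (86.9%) had a lower mean log2 covered length, against 80.2% of all constitutive regions.

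Gene ends were next compared with the other constitutive regions, whose difference was larger in these libraries, though the comparison missed the adjusted threshold. Their median covered length averaged 918 ± 92.9 bp with DMSO and 701 ± 39.0 bp with 3MB-PP1 (SD, n = 4). The median difference per region was −11.8% at gene ends, −21.0% in gene bodies and −20.5% between genes. The log2 ratio of the gene-end median to that of the other regions was 0.73, 0.71, 0.53 and 0.68 in DMSO replicates 1 to 4. It was 0.89, 0.79, 0.78 and 0.84 in 3MB-PP1 replicates 1 to 4, again without overlap. For the difference of 0.16, exact permutation (two-sided) gave p = 0.0286 and an adjusted p of 0.0571 over the 6 measures. Odd-numbered replicates differed by 0.20 and even-numbered ones by 0.12. With all lists joined over 1 common smallest gap the groups overlapped in this ratio and differed by 0.13 (p = 0.0571 by exact permutation, adjusted p = 0.114). Gene-end regions as a share of all covered base pairs were 16.5% ± 1.97 with DMSO and 15.9% ± 1.21 with 3MB-PP1 (SD, n = 4), and the difference of −0.506 percentage points did not exceed the spread of replicates (p = 0.629 by exact permutation, adjusted p = 0.629).

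**Figure D1:**
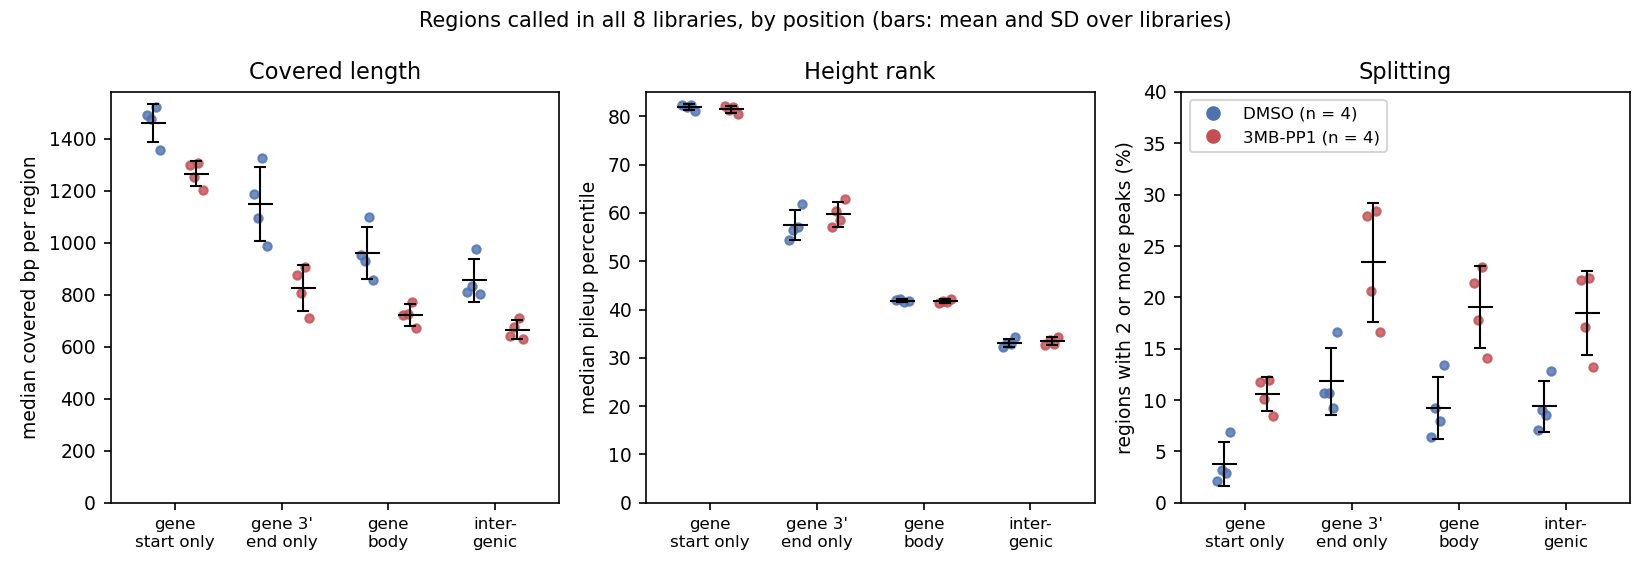
Median covered base pairs per region (left), median percentile of the highest pileup (middle) and percentage of regions split into 2 or more peaks (right) in each library, for constitutive regions at gene starts only, at 3′ ends only, in gene bodies and between genes. Points are libraries and bars show the mean and SD of 4. At starts the 3MB-PP1 mean of 1266 bp lay under the DMSO mean of 1461 bp, while the percentiles lay close together.

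Among the gene-end regions, those at starts and those at 3′ ends had different values. Regions at starts only had a median covered length of 1461 ± 72.9 bp with DMSO and 1266 ± 47.2 bp with 3MB-PP1 (SD, n = 4), and those at 3′ ends only 1148 ± 144 bp and 825 ± 88.3 bp. The median difference per region was −11.2% at starts and −23.2% at 3′ ends, beside −21.0% in gene bodies. The log2 ratio of the start median to the 3′-end median was 0.33, 0.43, 0.20 and 0.46 in DMSO replicates 1 to 4 and 0.57, 0.64, 0.52 and 0.76 in 3MB-PP1 replicates 1 to 4. The groups did not overlap. This ratio was chosen after the data were seen and is given without a test. Regions at starts also stood higher, with a median mean percentile of 81.4 against 57.4 at 3′ ends.

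Divergent starts, where genes on both strands begin within 1 kb of the same region, made up 1010 of the members (9.63%). Their median covered length was 1519 ± 66.1 bp with DMSO and 1341 ± 47.4 bp with 3MB-PP1 (SD, n = 4), and their median percentile 87.4 ± 0.560 and 87.0 ± 0.634. The 7142 regions with starts on 1 strand had 1461 ± 79.5 bp and 1256 ± 48.6 bp, and percentiles of 80.9 ± 0.625 and 80.5 ± 0.745. The median log2 difference in covered length was −0.15 at divergent starts and −0.18 at the others.

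Around starts, the difference in the share of positions under a peak was larger over the flanks than at the start itself. It was examined at 5928 regions that held a single annotated start of known strand and no other gene end. Each region also had to hold a peak in every list, which favours high coverage near the start in both groups. How much of the pattern follows from this choice of regions was not tested. In the 50 bp from the start downstream, 94.7% of positions were under a peak with DMSO against 92.0% with inhibitor (−2.76 percentage points). The difference was widest upstream in the 50 bp from 450 bp before the start, at −12.3 points (63.2% and 50.9%), and on the downstream side in the 50 bp from 700 bp after it, at −9.48 points (60.2% and 50.7%). Mean coverage upstream of the start was 602 ± 32.3 bp with DMSO and 506 ± 17.5 bp with 3MB-PP1, and downstream 922 ± 46.3 bp and 817 ± 39.7 bp (SD, n = 4). The groups did not overlap on either side. The downstream share of the covered length was 60.8%, 60.0%, 60.4% and 60.7% in DMSO replicates 1 to 4 and 62.0%, 61.5%, 62.1% and 61.4% in 3MB-PP1 replicates 1 to 4. These measures were also chosen after the data were seen and carry no test. The start itself was under a peak in 94.4% ± 1.68 of regions with DMSO and 91.7% ± 2.16 with 3MB-PP1, and here the groups overlapped.

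**Figure D2:**
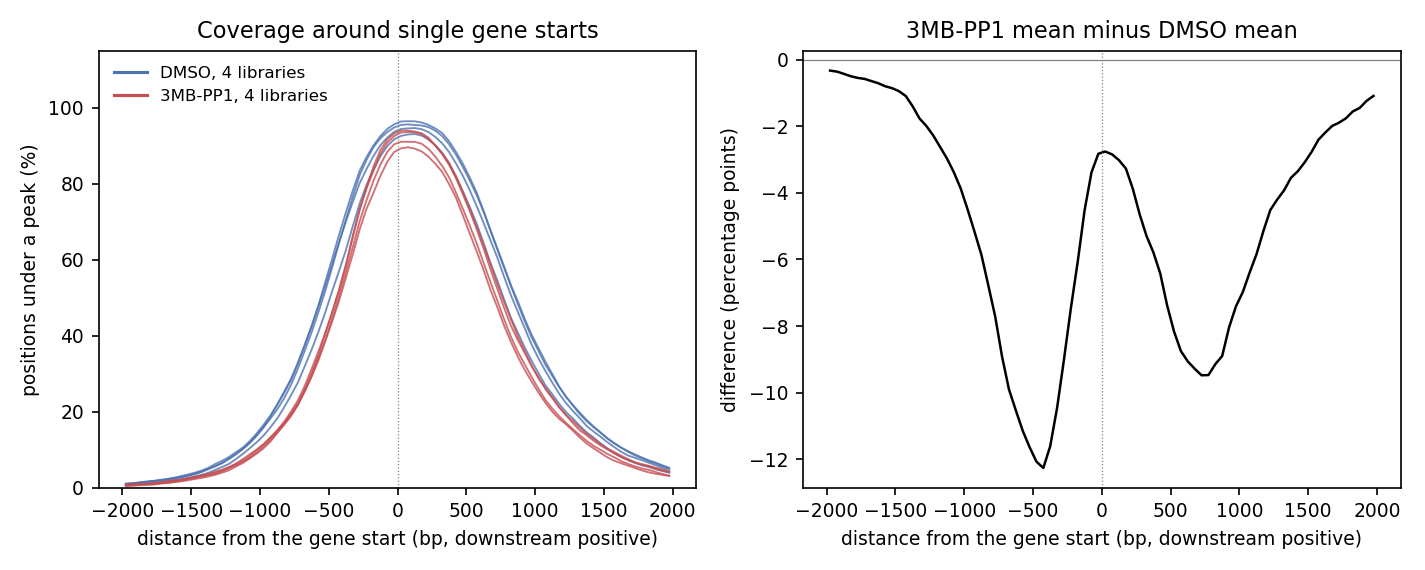
Percentage of positions under a peak (left) in each library around 5928 single gene starts, by distance in bp with downstream positive, and the difference of the group means in percentage points (right), in steps of 50 bp. The curves lie closer at the start than over the flanks, and the difference reaches −12.3 points upstream and −9.48 points downstream. Regions were chosen to hold the start and a peak in every list.

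The difference in covered length varied with how high a region stood, and above percentile 50 it was smaller in higher regions. In each library every constitutive region was ranked by its highest peak pileup (coverage by fragments, as the deposited lists give it), and the rank was expressed as a percentile from 0 to 100. From mean percentile 90 to 100, the median log2 difference in covered length was −0.12 for 2788 gene-end regions and −0.13 for 735 other regions. From mean percentile 50 to 60 it was −0.28 for 784 gene-end regions and −0.40 for 2786 others. The log2 ratio of gene-end to other medians averaged 0.05 ± 0.02 with DMSO and 0.09 ± 0.02 with 3MB-PP1 among regions above percentile 80, where the groups overlapped. Between percentiles 40 and 80 it averaged 0.32 ± 0.06 and 0.48 ± 0.02 (SD, n = 4) without overlap. These height classes were chosen after the data were seen and carry no test. From percentile 0 to 10, where there were 52 gene-end regions and 1511 others, the median log2 difference was again small, at −0.09 and −0.15.

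**Figure D3:**
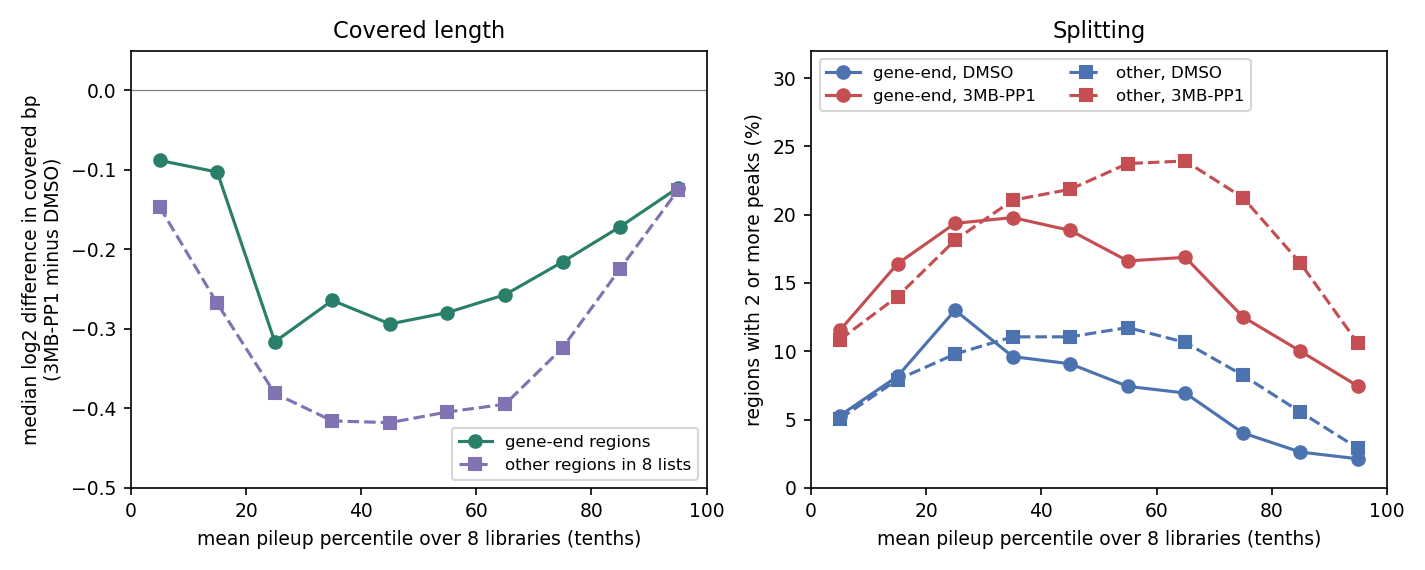
Median log2 difference in covered bp, 3MB-PP1 minus DMSO (left), and percentage of regions with 2 or more peaks (right), in steps of 10 of the mean pileup percentile, for gene-end and other constitutive regions. The curves on the left meet at −0.12 and −0.13 from percentile 90 to 100.

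The ranks of the gene ends as a class did not pass a test. A rank within a library cannot show a change in height that all regions share. As deposited, with depth unknown, the median highest pileup at gene ends averaged 39.5 ± 8.36 with DMSO and 25.3 ± 2.47 with 3MB-PP1 (SD, n = 4). In the other constitutive regions it averaged 15.5 ± 1.14 and 12.8 ± 0.833. The groups did not overlap in either class, and these pileups were not tested. The median percentile of gene-end regions was 80.5, 80.1, 80.5 and 79.1 in DMSO replicates 1 to 4 and 80.4, 79.6, 80.1 and 78.9 in 3MB-PP1 replicates 1 to 4. The groups overlapped, and the difference of −0.308 did not exceed the spread of replicates (p = 0.514 by exact permutation, adjusted p = 0.617). Between libraries of the same replicate number the median was lower with 3MB-PP1 in all 4 pairs. By exact sign flips this gave p = 0.125, the smallest that 4 pairs allow. By promoter motif, members with an NRF1 core stood at a median mean percentile of 91.0 and those without at 80.7, and members with a CRE at 89.9 and 81.1. Members with an NRF1 core were narrower all the same, at 1301 ± 46.8 bp with DMSO and 1147 ± 20.6 bp with 3MB-PP1, against 1485 ± 78.4 bp and 1281 ± 52.9 bp for the rest. With promoters ordered by CpG ratio into 4 equal sets, the median mean percentile was 72.9 in the set of lowest ratio and 85.1 in that of highest ratio, and the median log2 difference in covered length −0.21 and −0.16.

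The share of gene-end regions broken into several peaks was higher in every 3MB-PP1 list than in every DMSO list, again without passing after adjustment. The share holding 2 or more peaks was 2.91%, 4.13%, 3.56% and 8.15% in DMSO replicates 1 to 4 and 13.95%, 11.71%, 14.001% and 9.71% in 3MB-PP1 replicates 1 to 4. The means were 4.69% ± 2.36 and 12.3% ± 2.05 (SD, n = 4), a difference of 7.66 percentage points without overlap (exact two-sided permutation p = 0.0286, adjusted p = 0.0571). DMSO replicate 4 lay nearest the 3MB-PP1 lists. Odd-numbered replicates differed by 10.7 points and even-numbered ones by 4.57 points. The order of the 8 libraries by this share was the exact reverse of their order by smallest gap between peaks. With every list joined over the largest of these smallest gaps (542 bp), the shares were 3.45%, 3.97%, 3.60% and 6.29% with DMSO and 6.81%, 7.42%, 6.75% and 7.08% with 3MB-PP1. The difference of 2.69 points compares with 7.66 in the lists as deposited, and the groups still did not overlap (exact two-sided permutation p = 0.0286, adjusted p = 0.0857).

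**Figure D4:**
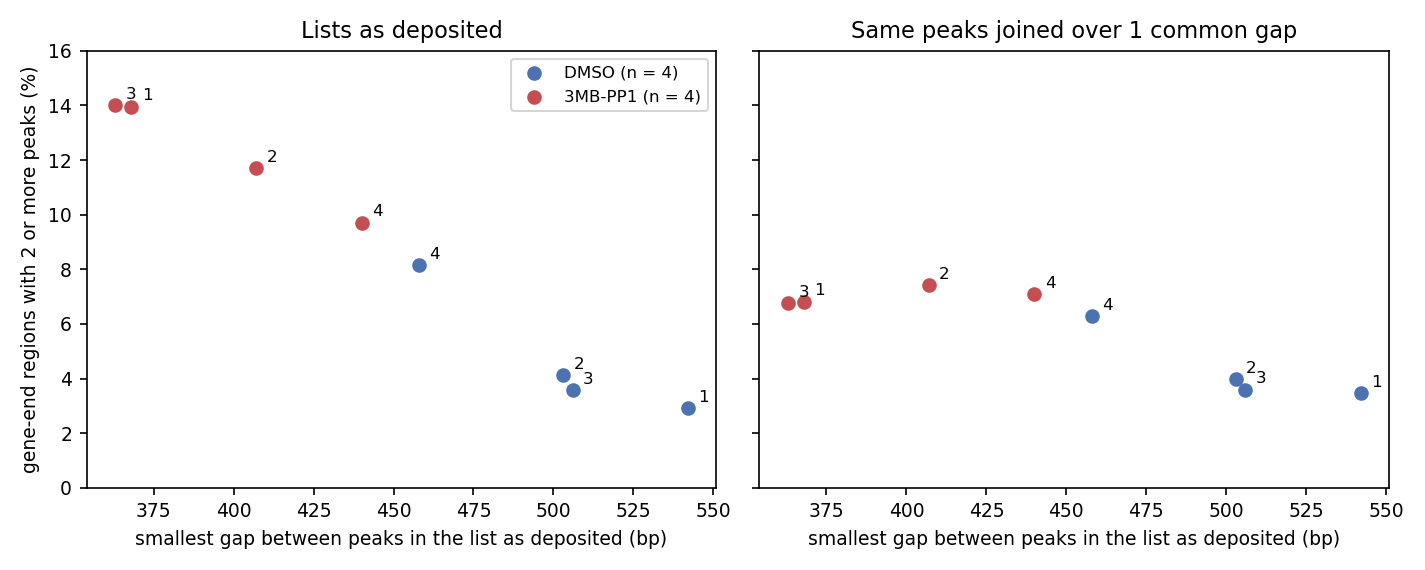
Percentage of gene-end regions with 2 or more peaks against the smallest gap between peaks in bp of each list, as deposited (left) and after all lists were joined over 542 bp (right). Points are libraries, numbered by replicate. As deposited the shares run from 2.91% at the largest gap to 14.001% at the smallest, and after joining from 3.45% to 7.42%.

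Most gene ends were single peaks throughout. A single peak in all 8 libraries was found at 7520 regions (71.7%). A region that was single in all 4 DMSO libraries and split in all 4 3MB-PP1 libraries occurred 75 times, and the opposite 0 times. Single in all 4 DMSO libraries and split in at least 1 3MB-PP1 library were 1688 regions, against 196 the other way round. These patterns were counted at gene ends only, so they do not set gene ends apart. In the other constitutive regions the split share was also higher with 3MB-PP1, at 18.8% ± 4.02 against 9.29% ± 2.79 with DMSO (SD, n = 4). Other constitutive regions were split more often in both groups, and the share at gene ends minus that elsewhere was −4.61 ± 0.597 points with DMSO and −6.49 ± 1.98 with 3MB-PP1 (SD, n = 4). This difference of −1.88 points overlapped between groups (exact two-sided permutation p = 0.143, adjusted p = 0.214). As a ratio, the share at gene ends divided by that elsewhere went the other way, at 0.485 ± 0.0885 with DMSO and 0.661 ± 0.0358 with 3MB-PP1 (SD, n = 4) without overlap. This ratio was chosen after the data were seen and carries no test, and with lists joined over the common gap it was 0.467 ± 0.0695 and 0.577 ± 0.0642 with overlap. Regions at 3′ ends only were split in 11.8% ± 3.24 with DMSO and 23.4% ± 5.79 with 3MB-PP1, and those at starts only in 3.77% ± 2.11 and 10.6% ± 1.63. Around single starts, 54.6% to 58.0% of the gaps between peaks lay more than 250 bp downstream of the start and 29.5% to 37.1% more than 250 bp upstream, in all 8 libraries.

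Region by region, few gene ends passed a test. A limma model on log2 covered bp was fitted to all 36170 constitutive regions, with Benjamini-Hochberg adjustment over all of them. It called 25 gene-end regions lower with 3MB-PP1 (0.238% of members), where 0.274% of all constitutive regions were called. It called 0 members higher, where 0% of all regions were. At an unadjusted p under 0.05, 1806 members were lower and 29 higher. Together these were 17.5% of members, against 19% of all constitutive regions. Covered lengths of the groups did not overlap in 1334 members in the lower direction (12.7%, against 10.9% of all constitutive regions) and in 20 in the higher (0.191%, against 0.379%). The median constitutive region shifted by −0.27 on the log2 scale. When each library was centred on its own median, no region passed (0 members in either direction). At an unadjusted p under 0.05, 215 members were then lower and 2097 higher. Together these were 22% of members, against 15.6% of all constitutive regions. The 25 calls describe length in the lists as deposited, not length relative to other regions. The counts that follow are of members only, without the share of all regions under the same setting. Joining all lists over the common gap left 0 of these calls, and leaving out 1 library gave 0 (without DMSO replicate 1, 2 or 3, or 3MB-PP1 replicate 2 or 4), 9 and 31 (3MB-PP1 replicates 3 and 1) and 63 (DMSO replicate 4).

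The 5 lower regions described first were chosen by p-value after their values were seen. KLHDC8B (chr3:49170289-49172928), a Kelch-domain gene, covered 1913, 2640, 2019 and 1925 bp in DMSO replicates 1 to 4 and 962, 813, 752 and 732 bp in 3MB-PP1 replicates 1 to 4. The groups lay far apart, and it fell by 1.38 ± 0.15 (SE) on the log2 scale (limma adjusted p = 0.0264). COMMD2 (chr3:149751359-149753090), of a family of endosomal sorting proteins, covered 1507, 1732, 1673 and 1495 bp with DMSO and 590, 654, 462 and 647 bp with 3MB-PP1. It remained a single peak in all 8 libraries and fell by 1.46 ± 0.18 (limma adjusted p = 0.0319). ANKRD1 (chr10:90919887-90922072), a known target of the YAP and TEAD factors, covered 2039, 1998, 2053 and 2053 bp with DMSO and 1300, 1075, 1278 and 1074 bp with 3MB-PP1. One peak in every DMSO library stood against 2 in every 3MB-PP1 library, and the length fell by 0.79 ± 0.10 (limma adjusted p = 0.0319). STAC (chr3:36379851-36382016), an adaptor protein gene, fell from 2019 ± 162 bp to 1107 ± 105 bp (SD, n = 4; limma adjusted p = 0.0319). PID1 (chr2:229270837-229274317), encoding a phosphotyrosine-binding protein, covered 3413, 2885, 3283 and 3113 bp in 1 peak with DMSO and 1944, 1476, 1223 and 1324 bp in 3, 2, 4 and 4 peaks with 3MB-PP1 (limma adjusted p = 0.0319). None of the 5 passed with centred libraries (adjusted p 0.176 to 0.183) or with the replicate number as a term (adjusted p = 0.0914 for each, limma). Of the other 20 lower regions, the smallest difference was −0.41, at ARID5B. ITGA5, the α5 integrin gene, covered 3518 to 3771 bp with DMSO and 2525 to 2822 bp with 3MB-PP1. TMEM205/CCDC159 was tight with DMSO only, at 2504 to 2542 bp, and covered 1200 to 1750 bp with 3MB-PP1.

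With libraries centred, the first regions by p ran in both directions and none passed. ZNF552, a zinc finger gene, had a log2 difference of −1.91 (limma adjusted p = 0.183). FOXO1, a forkhead transcription factor gene, was 0.53 higher with 3MB-PP1 once libraries were centred, with 2230 to 2715 bp with DMSO and 2457 to 3106 bp with 3MB-PP1, which overlapped. The transcription repressor gene ZBTB7A was 0.46 higher on the same scale, with 2522 to 3094 bp and 2945 to 3071 bp. KHSRP/SLC25A41 covered 2003, 2027, 2027 and 1448 bp with DMSO and 2471, 2439, 2153 and 2478 bp with 3MB-PP1, and its groups did not overlap. CLMP covered 1608 to 2308 bp and 2245 to 2560 bp, and ZBTB14 2321 to 2609 bp and 2495 to 2787 bp. Adjusted p-values in this limma fit were 0.151 to 0.183 for the regions named by it.

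Height rank passed a test at 23 gene ends. In the limma fit of percentiles, 18 members were higher with 3MB-PP1 (0.172%, where 0.0608% of all constitutive regions were called) and 5 were lower (0.0477%, where 0.0442% were). The percentile scale ends at 100, and the 18 had a median of 87.7 with DMSO. Gene ends stood at a median mean percentile of 79.6 and the other constitutive regions at 36.7. Whether the larger share called higher follows from where members stand on this scale was not tested. MRS2 (chr6:24402423-24403762), encoding the mitochondrial magnesium channel, stood at percentiles 79.1, 79.0, 78.4 and 78.7 with DMSO and 90.6, 92.2, 92.5 and 90.4 with 3MB-PP1. The groups were far apart, and its rank rose by 12.6 ± 1.01 (SE; limma adjusted p = 0.00103), while its covered length of 1113 ± 233 bp and 786 ± 67.6 bp did not pass. The divergent start of NOC2L and KLHL17 (chr1:958981-961100) stood at 83.2, 81.6, 83.4 and 86.2 with DMSO and 96.1, 93.0, 92.8 and 94.6 with 3MB-PP1 (limma adjusted p = 0.00683). NOC2L encodes an inhibitor of histone acetyltransferases. SPRYD4 (chr12:56468083-56469811) rose from 69.9 ± 1.72 to 83.0 ± 3.24 (SD, n = 4; limma adjusted p = 0.0483). Others among the 18 were SDHB, of mitochondrial complex II, RRP1 and PPAN, of ribosome biogenesis, NELFCD, of the negative elongation factor, and XRCC1, of single-strand break repair. In all 18 the groups lay apart on the percentile scale, and the differences ran from 3.25 (BTBD3) to 13.1 (SPRYD4).

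The 5 lower in rank were KCNMB2, CFAP61, TTL, DHRS3 and MARCHF4. KCNMB2 (chr3:178845267-178847450), a potassium channel subunit gene touched at its 3′ end, stood at 49.7, 48.7, 50.8 and 41.5 with DMSO and 2.06, 20.7, 6.27 and 12.3 with 3MB-PP1 (limma adjusted p = 0.0483). CFAP61, a gene of motile cilia, stood at 82.5 to 84.8 and 72.8 to 76.1 and covered length did not pass (1259 ± 36.4 bp and 1200 ± 91.8 bp). TTL, the tubulin tyrosine ligase gene, stood at 86.0, 88.4, 85.9 and 84.6 with DMSO and 79.2, 77.6, 76.4 and 78.2 with 3MB-PP1 (limma adjusted p = 0.0483). Ranks by fold enrichment in place of pileup gave 0 calls in either direction, and so did ranks among all peaks of a list. Leaving out 1 library gave 2 to 38 higher and 0 to 7 lower calls among members, and the highest counts were without DMSO replicate 4.

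**Figure D5:**
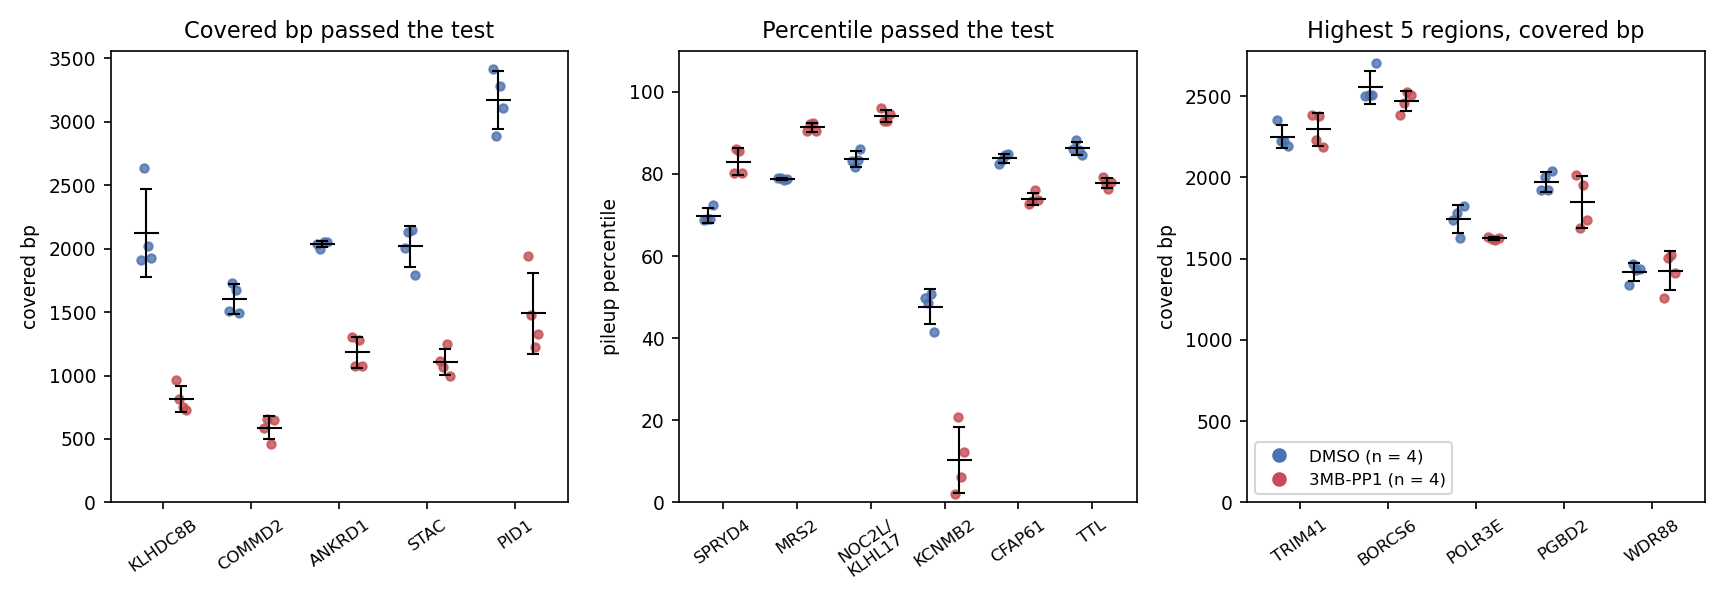
Covered bp of the 5 regions named as lower (left), pileup percentile of the 6 regions named by rank (middle) and covered bp of the 5 gene-end regions with the highest mean percentile (right), in each library, with the mean and SD of 4. KLHDC8B falls from 2124 to 815 bp and MRS2 rises from percentile 78.8 to 91.4, while TRIM41 has 2249 and 2295 bp.

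In number of peaks, the groups did not overlap at 77 members with more peaks under 3MB-PP1 (0.734%, against 0.619% of all constitutive regions) and at 0 members with fewer (0%, against 0.0138%). Beside PID1, the largest gains were at BORCS7, of the lysosome-positioning BORC complex (1 peak in each DMSO library and 4, 3, 3 and 3 with 3MB-PP1), and MAP2K3, a p38 pathway kinase (1, 1, 1 and 2 against 3, 3, 4 and 3). Covered length did not pass at either. The largest losses in mean number were at FAM20B, OR1L6 and FCGBP, all with overlapping groups and low percentiles (means of 17.0, 18.9 and 28.9).

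The highest gene ends did not pass in length or rank. Because they were chosen by mean percentile, they stood near 100 in every library, where a difference in rank could hardly appear. The 5 with the highest mean percentile, at TRIM41, BORCS6, POLR3E, PGBD2 and WDR88, all overlapped annotated tRNA genes, which RNA polymerase III transcribes, and POLR3E itself encodes a subunit of that enzyme. TRIM41 (chr5:181221535-181223937) had the highest mean percentile of the gene ends, at 99.9959 in each of the 8 libraries, and covered 2352, 2227, 2224 and 2194 bp with DMSO and 2384, 2231, 2378 and 2188 bp with 3MB-PP1. The groups overlapped. POLR3E (chr16:22296866-22298707) covered 1739, 1779, 1626 and 1825 bp and 1636, 1622, 1617 and 1625 bp. Of the 100 highest gene ends 12 overlapped a tRNA gene, against 46 of all 10492. These 46 covered 1675 ± 66.6 bp with DMSO and 1618 ± 16.8 bp with 3MB-PP1 (SD, n = 4), at median percentiles of 98.3 ± 0.235 and 97.7 ± 0.197. The widest members were at MICA, UBTF, FSCN1, CDK6 and TRIM8. MICA, a stress-induced ligand of immune receptors, covered 4446 ± 380 bp with DMSO and 4341 ± 344 bp with 3MB-PP1, and UBTF, a transcription factor of ribosomal DNA, 4357 ± 77.7 bp and 4004 ± 282 bp. None of these 10 regions passed in length or in rank. Few members did (0.238% lower in length, 0.172% higher and 0.0477% lower in rank), so this does not set them apart.

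Housekeeping and signalling genes were then followed by list. A gene-end region was present for 72 of 74 cytosolic ribosomal protein genes, 29 of 32 proteasome subunits, 10 of 12 RNA polymerase II subunits, 29 of 30 general transcription factors, 28 of 31 core spliceosome proteins and 33 of 34 mitotic kinases and partners. All 20 AP-1 and immediate early genes had one, and 21 of 23 epithelial and mesenchymal structure genes. The shares were lower for lists of other tissues, with 5 of 18 blood, 2 of 15 liver, 3 of 14 muscle and 6 of 11 neuron genes, and for 5 of 14 retinal pigment epithelium identity genes, beside 61.9% of all protein-coding genes.

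The AP-1 and immediate early genes stood out by level, with 22 regions at a median mean percentile of 95.1 and a median covered length of 2313 bp with DMSO and 2052 bp with 3MB-PP1 (means over libraries), beside 79.6 for all members. FOSL1 stood at a mean percentile of 98.2, JUND at 98.5 and EGR1 at 97.0. The AP-1 and immediate early regions were split in 7.95% of cases with DMSO and 26.1% with 3MB-PP1. This was not particular to them, as regions of RNA polymerase II subunits were split in 6.25% and 27.1%. The remaining lists of 10 or more regions reached at most 15.3% with 3MB-PP1. Ribosomal protein genes had 81 regions at a median mean percentile of 84.9, with 1278 bp and 1065 bp, and were split in 2.47% and 8.02%. Their median log2 difference was −0.24, beside −0.18 for all members and −0.27 for all constitutive regions. For the other lists of 10 or more regions the median log2 difference was −0.26 (proteasome), −0.29 (RNA polymerase II and general factors), −0.19 (spliceosome), −0.17 (mitotic kinases), −0.15 (AP-1) and −0.10 (epithelial and mesenchymal).

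No region of any of the 13 lists passed the test for covered length, which 0.238% of members and 0.274% of all constitutive regions passed. In rank 1 passed, at RPS21/CABLES2, which stood at 88.7 to 90.9 with DMSO and at 94.0 to 95.2 with 3MB-PP1 (limma adjusted p = 0.0266). Called higher in rank were 0.172% of members and 0.0608% of all constitutive regions. The largest list had 81 regions, so these counts do not set the lists apart from other members. The region of highest rank in each list passed in neither measure. Among them, GTF2H1/HPS5, with a subunit of the general factor TFIIH, covered 1056, 1119, 1107 and 1084 bp with DMSO and 1100, 954, 1001 and 1142 bp with 3MB-PP1. BUB3, of the spindle checkpoint, covered 1679, 1679, 1722 and 1538 bp and 1331, 1361, 1312 and 1197 bp, without overlap but short of the limma threshold (adjusted p = 0.120). VIM, the vimentin gene, covered 1891, 1684, 1945 and 1443 bp and 1916, 1885, 1947 and 1456 bp. IER2, an immediate early gene, shared its region with STX10 and covered 2357 to 3451 bp and 1724 to 3325 bp. The other list leaders, RPL41/ZC3H10, PSMA5, POLR2I/TBCB/OVOL3, U2AF2/CCDC106, RDH5/BLOC1S1, TUBB3/MC1R, CD3E, APOB and TNNC2/SNX21, had adjusted p-values of 0.23 or more for covered length by limma. PLK1 itself had a gene-end region, at a mean percentile of 61.8, and those of AURKA and CDK1 stood at 96.1 and 89.3.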

How the data were processed

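ATAC-seq peak lists of 8 libraries (4 DMSO, 4 3MB-PP1) were analysed, grouped by the treatment in the labels. Each deposited list has 1 row per peak with its position, its length in bp (other), its pileup as signal coverage, its p and q as −log10 values and its fold ratio over background, and column meanings were read from the values because the lists have no header. The submitters' processing notes name MACS2, DESeq2 and hg38 without versions or roles. Aligner, filters, Tn5 shift and caller settings are not given in the sources used here, so depth is unknown. The same rule was used for all libraries, and 0 columns of other samples were present.

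Peaks on chromosomes 1 to 22 were merged and classed with the RefSeq GRCh38 gene table. Covered bp is the length of peaks inside a region. The 6 library measures were tested by exact two-sided permutation, with Benjamini-Hochberg adjustment. Single regions were tested with limma 3.58.1 (trend) in R 4.3.3 on log2 covered bp and on pileup percentile, adjusted over 36170 regions, at 0.05, and the script was tested on simulated data. The other steps used scipy 1.17.1, pandas 2.3.3 and numpy 2.4.6 in Python 3.11.15, with figures by matplotlib 3.10.9.

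Members and lists were chosen with earlier results of these data known. Regions were named as those with the largest difference among those passing, filled by p where too few passed (5 per direction for centred covered bp, 3 per direction for percentile), the 5 widest, the 5 highest, the 3 with the largest gain or loss in peaks and the highest of each gene list. The 5 with the smallest p for uncentred covered bp, and examples among the regions that passed, were added after values were seen. Alternatives were peaks merged within 500 bp, a −log10 q of at least 2, equal list lengths, a common smallest width or joining gap, windows of 100 bp or 2.5 kb, gene starts only, other ranks, no trend, a replicate block, odd or even replicates, and leaving out each library. Chromosomes X and Y were not used. A region that the naming rule selects is not reported here.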

Additional observations from a re-analysis of the deposited data

Results flagged for a closer look

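In 11 of 110 groups of 4 libraries, 1 library lay far from the other three by Dixon's criterion (the gap to the nearest, as a share of the group's range). About 1 in 20 groups, here 5.5, is flagged by chance. DMSO replicate 4 was the distant library in 6 of the 11.

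For DMSO replicate 4, the split share at gene ends divided by that elsewhere came to 0.618, against 0.436 to 0.451 for the rest of its group (gap 0.914). Covered length at KHSRP/SLC25A41 was 1448 bp in DMSO replicate 4 against 2003 to 2027 bp (gap 0.959), at FSCN1 2958 bp against 4874 to 5090 bp (gap 0.899) and at CDK6 3938 bp against 4358 to 4383 bp (gap 0.944). The pileup percentile of SPRYD4 was 72.4 in that library against 68.8 to 69.1 (gap 0.924), and that of PGBD2 99.9793 against 99.9848 in each of the others (gap 1).

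KLHDC8B covered 2640 bp in DMSO replicate 2 against 1913 to 2019 bp (gap 0.854). KHSRP/SLC25A41 covered 2153 bp in 3MB-PP1 replicate 3 against 2439 to 2478 bp (gap 0.88), and CLMP 2245 bp in 3MB-PP1 replicate 1 against 2541 to 2560 bp (gap 0.940). The percentile of CCDC106/U2AF2 was 99.5 in 3MB-PP1 replicate 2 against 99.7 in the others (gap 0.878). The percentile of CD3E was 68.8 in 3MB-PP1 replicate 3 against 47.8 to 50.9 (gap 0.850).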

How the results depend on the processing

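Without 1 library, the difference in median covered length ran from −246 to −185 bp, in the log2 ratio to other regions from 0.11 to 0.18, in median percentile from −0.647 to −0.0356, in split share from 7.03 to 8.67 points, in relative split share from −2.18 to −0.986 and in share of covered base pairs from −1.13 to 0.161. That share turned positive without DMSO replicate 1 (0.161), DMSO replicate 2 (0.00367) or 3MB-PP1 replicate 3 (0.0176). Limma calls ran from 0 to 63 (covered length, lower), 2 to 38 (percentile, higher) and 0 to 7 (percentile, lower). With a −log10 q of at least 2, the differences were −204.25 bp, 0.18 (log2 ratio), 2.61 points (split share) and −2.22 points (relative split share), each with an adjusted p of 0.0429 by exact permutation, while the share of covered base pairs was 7.88 points higher. That share was also higher at equal list lengths (1.62) and at a common smallest width (0.0235). The relative split share was 0.140 with a common width and joining gap, and −3.86 and 0.102 in odd and even replicates, where the split share differed by 10.7 and 4.57. The median percentile difference was 0.239 by fold enrichment and 0.185 among all peaks. The cause of these changes was not tested.

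Calls of lower covered length, 25 as reported, were 9 with peaks merged within 500 bp, 193 with the q minimum, 75 at equal list lengths, 38 at a common width, and 0 with the joining gap, with both, without trend, in odd replicates, in even replicates and with libraries centred. Percentile calls, 18 higher and 5 lower as reported, were 61 and 39 with the q minimum, 121 and 90 with odd or even number as a term, and 0 and 0 without trend, in even replicates, by fold enrichment and among all peaks. All counts of calls under alternatives are of gene-end regions only. The share of all constitutive regions called under the same setting is not given here, so these counts do not set gene ends apart. Lower calls were 8 at equal lengths, 0 in odd replicates and 1 with normal scores. Of 231 alternative values for named regions, 160 stayed on their side of the threshold, 68 lost and 3 gained a call, and none changed sign. MRS2 and NOC2L/KLHL17 kept their calls without each library in turn, SPRYD4, KCNMB2 and TTL only without DMSO replicate 4, and CFAP61 in none of these.

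The main tests did not use the replicate numbers as pairs, and whether the numbers pair the samples was not tested. Correlations of same-numbered libraries were weak but all positive, at 0.116, 0.0167, 0.0286 and 0.126. Those of differently numbered libraries ran from −0.135 to 0.0336. The same number gave the highest correlation for every library except 3MB-PP1 replicate 2, which correlated most with DMSO replicate 4 (0.0336). With a replicate block, limma calls among gene-end regions were 0 for lower covered length and 121 higher and 78 lower for percentile. The share of all constitutive regions called in that fit is not given here. The library measures could reach no p below 0.125 by exact sign flips.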
